A study of Mus musculus with 8 samples.

Results

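Innate immune sensors of the hippocampus were examined in BTBR mice, an inbred strain used as a model of autism spectrum disorder, and in B6 controls. The genes were the secreted sensor Pglyrp1, the Toll-like receptors Tlr2, Tlr3, Tlr4, Tlr7 and Tlr9, the co-receptor Cd14, the adaptors Myd88 and Ticam1, and the cytosolic sensor Nod1. Every non-control probe that carried one of these 10 gene names in the array files was taken, which gave 13 of the 41174 probes on the array. For 7 of the genes there was 1 probe, and for Tlr3, Tlr4 and Ticam1 there were 2 probes each. RNA came from the whole hippocampus of 4 BTBR T+ Itpr3tf/J mice and 4 wild type C57BL/6J (B6) mice, all males of 5 months without drug treatment, and each mouse was hybridized to its own single-color Agilent array. The labels also give C57BL/6J as strain background for the BTBR mice, but the remaining labels name BTBR, by which they were grouped. Both are inbred strains, so that BTBR and B6 mice differ across the genome and not at a single allele.

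Innate sensors recognize molecules that microbes or damaged cells release. Toll-like receptors sit at the cell surface (Tlr2 and Tlr4, helped by Cd14) or in endosomes, where they bind nucleic acids (Tlr3, Tlr7 and Tlr9), and they signal through the adaptors Myd88 and Ticam1 to NF-kappa B and interferon regulatory factors. Pglyrp1 is a secreted protein that binds bacterial peptidoglycan and is stored in large amounts by neutrophils, and Nod1 detects peptidoglycan fragments in the cytosol. In the brain, many of these genes are expressed by microglia, the resident macrophages.

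Pglyrp1 was down-regulated and Tlr9 was up-regulated in the BTBR hippocampus, and no other probe of these genes passed the test. The level of Pglyrp1 was 2.20-fold lower in BTBR than in B6 mice, and that of Tlr9 was 1.31-fold higher. Nod1 and both Ticam1 probes were also higher in every BTBR mouse than in every B6 mouse, but their adjusted p did not pass the threshold. Tlr4 was not measurably above background on these arrays. Levels are normalized log2 intensities, differences are BTBR minus B6 on that scale, and a probe was called at a limma p under 0.05 after Benjamini-Hochberg adjustment over the 27982 probes tested. Probes entered the test if the scanner software had marked them well above background on 75% or more of either strain's arrays. Of the 13 probes, 10 met this, and they stand for 9 of the 10 genes. Of these 10 probes, 1 was called lower and 1 higher in BTBR, while over all probes tested 7.61% were called, 4.3% lower and 3.31% higher. The rank product, a test on ranks that the study's methods name, was called at a percentage of false prediction (pfp) of 0.05 or less. It called 1 of the 10 probes, Pglyrp1, against 3.93% of all probes tested (2.29% lower and 1.64% higher).

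Arrays were alike in brightness, with a median spot intensity between 378 and 490 (arbitrary scanner units) over a local background between 42 and 56. Between 57.4% and 72.3% of the spots of an array were well above background, and no spot was saturated. The 8 arrays sat on 2 slides, each with 2 mice of both strains. BTBR replicate 1 stood apart in a list of 6 thalamic genes, whose summed level was 16.28 in that mouse and between 13.88 and 14.44 in the 7 others. BTBR replicate 3 stood apart in 3 erythrocyte genes, with a summed level of 17.60 against at most 16.25 elsewhere. Values without these mice are given below for sensors whose difference moved by over 1.5 times.

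The probes are 60 bases long, and the first 30 bases of those whose strains did not overlap are shown 5′ to 3′, since each value below is the hybridization to this stretch and the 30 bases after it. The files place them on mm9 at chr7:19475659-19475718 (plus strand) for Pglyrp1, chr9:106128979-106129038 (plus strand) for Tlr9, chr6:54874007-54874066 (minus strand) for Nod1, and chr17:56409285-56409344 and chr17:56409265-56409324 (minus strand) for Ticam1 probes 1 and 2. Their RefSeq transcripts in the array files are NM_009402, NM_031178, NM_172729 and, for both Ticam1 probes, NM_174989. Whether a probe lies in coding sequence or in a UTR was not analysed here. Capitals in the Ticam1 pair mark bases that lie within the 40 bases the 2 probes share.
Pglyrp1: gtcatccaaagctgggaacactaccgagag
Tlr9: ctggttcccgagttgctctgcctgccttgc
Nod1: ctcaaagcaaagcatggcacatacccacca
Ticam1 probe 1: gaaccccttcttgagactccAGAGTGACCA
Ticam1 probe 2: AGAGTGACCAGGTTGGACCCCACCTAGATG

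**Figure D1:**
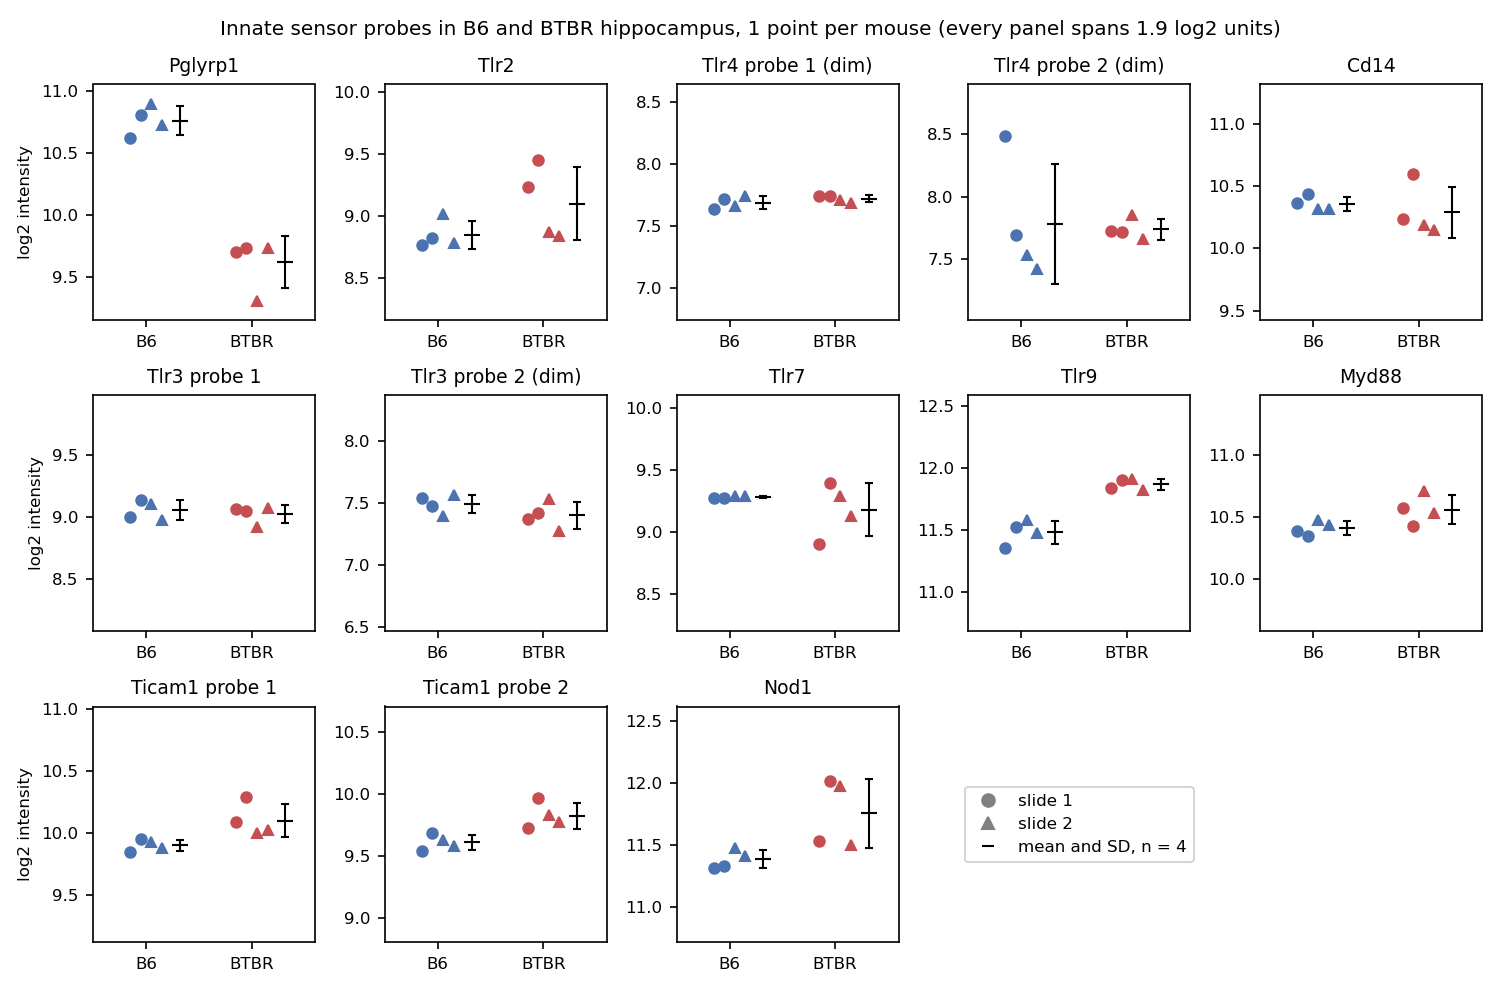
Normalized log2 intensity of each of the 13 probes in 4 B6 (blue) and 4 BTBR (red) mice, 1 point per mouse, with circles for slide 1, triangles for slide 2 and the mean with its SD in black. Every panel spans the same number of log2 units. The strains are far apart for Pglyrp1 and clearly apart for Tlr9, and the panels marked dim hold the probes of Tlr4 and the second probe of Tlr3, which were not well above background.

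Pglyrp1, the peptidoglycan-binding sensor, was measured by 1 spot per array that was well above background in all 8 mice. Its level was 10.61, 10.81, 10.89 and 10.72 in B6 replicates 1 to 4 and 9.70, 9.74, 9.31 and 9.73 in BTBR replicates 1 to 4. The strains did not overlap, and the highest BTBR mouse lay well below the lowest B6 mouse. Before any correction or scaling, the mean spot intensity was 1608, 2026, 1801 and 1615 in B6 and 981, 917, 546 and 760 in BTBR. The difference between 10.76 ± 0.12 in B6 and 9.62 ± 0.21 in BTBR (SD, n = 4 each) was -1.14 with a standard error of 0.11 and a 95% interval from -1.39 to -0.89 (limma adjusted p = 0.00025; exact permutation test, two-sided, p = 0.0286, the smallest that 4 mice against 4 allow). In absolute size this was above 98.8% of all probes tested. The rank product gave a pfp of 0.00186 for lower expression in BTBR. Slide 1 alone gave -0.99 (limma adjusted p = 0.0106) and slide 2 alone -1.29 (limma adjusted p = 0.0046). Without BTBR replicate 3, the lowest mouse, the difference was -1.04. In RNA from whole tissue, fewer cells that express a gene and less RNA per cell cannot be told apart, and this holds for every gene described here. Pglyrp1 and Tlr9 were each read by 1 probe. Whether the strains differ in sequence or transcript form at a probe, which could also change its signal, was not tested.

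Tlr2 and Tlr4 are the surface receptors, for bacterial lipoproteins and for lipopolysaccharide, and Cd14 presents ligands to both. The array carried 10 replicate spots of Tlr2, with a median SD of 0.07 between spots of 1 array. Tlr2 had a level of 8.77, 8.82, 9.01 and 8.78 in B6 and of 9.23, 9.45, 8.87 and 8.84 in BTBR. Only BTBR replicates 1 and 2, both on slide 1, lay above all B6 mice, and the other two BTBR mice lay within the B6 range. The difference of 0.25 (SE 0.14) did not pass the test (limma adjusted p = 0.40). Within slide 1 it was 0.54 (limma adjusted p = 0.0315) and within slide 2 it was -0.04 (limma adjusted p = 0.947). The difference between the slides had an unadjusted limma p of 0.0078 and an adjusted p of 0.433. The values of BTBR replicates 1 and 2 were also the highest of the 8 arrays in 5 choroid plexus genes, with summed levels of 15.88 and 15.83 against at most 15.12 in the others, and the part of this in the Tlr2 result was not tested.

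Neither probe of Tlr4 was well above background on any array. Probe 1, with 10 spots per array, had 1 of its 80 spots well above background, and its values lay between 7.63 and 7.75 in all 8 mice. Probe 2 targets another transcript of the gene and lies 86774 bases further along the chromosome. Its values lay between 7.42 and 7.85 in 7 mice and reached 8.49 in B6 replicate 1, whose spot was not called above background either and had the highest local background of the 8 arrays. No fold difference is given for Tlr4. Cd14 had a level between 10.32 and 10.44 in B6 and of 10.24, 10.60, 10.19 and 10.14 in BTBR, so that BTBR replicate 2 lay above and the 3 others below all B6 mice. The difference of -0.07 (SE 0.10, 95% interval from -0.30 to 0.16) did not pass the test (limma adjusted p = 0.789). It depended on the BTBR mice included, from -0.17 without BTBR replicate 2 (limma adjusted p = 0.214) to -0.03 without replicate 3 and -0.02 without replicate 4.

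The endosomal receptors bind double-stranded RNA (Tlr3), single-stranded RNA (Tlr7) and unmethylated CpG DNA (Tlr9). Tlr9 had a level of 11.35, 11.52, 11.58 and 11.47 in B6 and of 11.84, 11.90, 11.91 and 11.82 in BTBR. The 4 BTBR mice lay close together, and all of them lay above the highest B6 mouse. The difference between 11.48 ± 0.09 in B6 and 11.87 ± 0.04 in BTBR (SD, n = 4 each) was 0.39 with a standard error of 0.07 and a 95% interval from 0.24 to 0.54 (limma adjusted p = 0.0068; exact permutation test, two-sided, p = 0.0286). It was 0.43 within slide 1 (limma adjusted p = 0.0377) and 0.34 within slide 2, where it did not pass alone (limma adjusted p = 0.148), and the difference between the slides had an unadjusted limma p of 0.521. The rank product did not call it (pfp = 0.257). In absolute size it was above 89.8% of all probes tested. Leaving out any 1 array kept the difference between 0.34 and 0.42, with limma adjusted p between 0.013 and 0.026.

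The probe of Tlr7 gave almost the same value in the 4 B6 mice, 9.27, 9.27, 9.29 and 9.29, and 8.90, 9.39, 9.29 and 9.12 in BTBR. BTBR mice spread on both sides of the B6 mice, with an SD of 0.21 against 0.01 in B6. The difference of -0.10 (SE 0.10) did not pass the test (limma adjusted p = 0.666), and it was -0.01 without BTBR replicate 1, the mouse with the high thalamic genes, and -0.18 without BTBR replicate 2. Tlr3 probe 1 gave levels between 8.98 and 9.14 in B6 and between 8.92 and 9.07 in BTBR. These ranges overlapped almost entirely, and the difference of -0.03 (SE 0.07) did not pass the test (limma adjusted p = 0.86) and was 0.0042 without BTBR replicate 3. Tlr3 probe 2, at a site 221 bases away on the same transcript, was marked well above background on none of the 8 arrays, with values between 7.27 and 7.56.

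Myd88 serves nearly all Toll-like receptors, and Ticam1 serves Tlr3 and Tlr4. Myd88, read by 10 spots per array, had a level of 10.39, 10.35, 10.48 and 10.44 in B6 and of 10.57, 10.43, 10.71 and 10.53 in BTBR. All BTBR mice but replicate 2 lay above the B6 mice. The difference of 0.15 (SE 0.07) did not pass the test (limma adjusted p = 0.334; exact permutation test, two-sided, p = 0.0857), and it was 0.10 without BTBR replicate 3.

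Ticam1 probe 1 gave 9.85, 9.95, 9.93 and 9.88 in B6 and 10.09, 10.29, 10.002 and 10.03 in BTBR, and probe 2 gave 9.54, 9.69, 9.63 and 9.58 in B6 and 9.73, 9.97, 9.83 and 9.77 in BTBR. Neither probe showed an overlap of the strains, and BTBR replicate 2 was the highest mouse with both. The differences were 0.20 (SE 0.08, limma adjusted p = 0.193) for probe 1 and 0.21 (SE 0.07, limma adjusted p = 0.126) for probe 2, and neither passed the test. The 2 probes overlap by 40 of their 60 bases and are not independent readings of the gene.

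Nod1 had a level of 11.32, 11.34, 11.48 and 11.41 in B6 and of 11.53, 12.02, 11.98 and 11.50 in BTBR. The BTBR mice formed a higher and a lower pair, each with 1 mouse from either slide, and the lower pair lay just above the highest B6 mouse. The difference was 0.37 with a standard error of 0.13 and a 95% interval from 0.08 to 0.66, close in size to that of Tlr9. With an SD of 0.28 between BTBR mice it did not pass the test (limma adjusted p = 0.146; exact permutation test, two-sided, p = 0.0286; rank product pfp = 0.371).

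**Figure D2:**
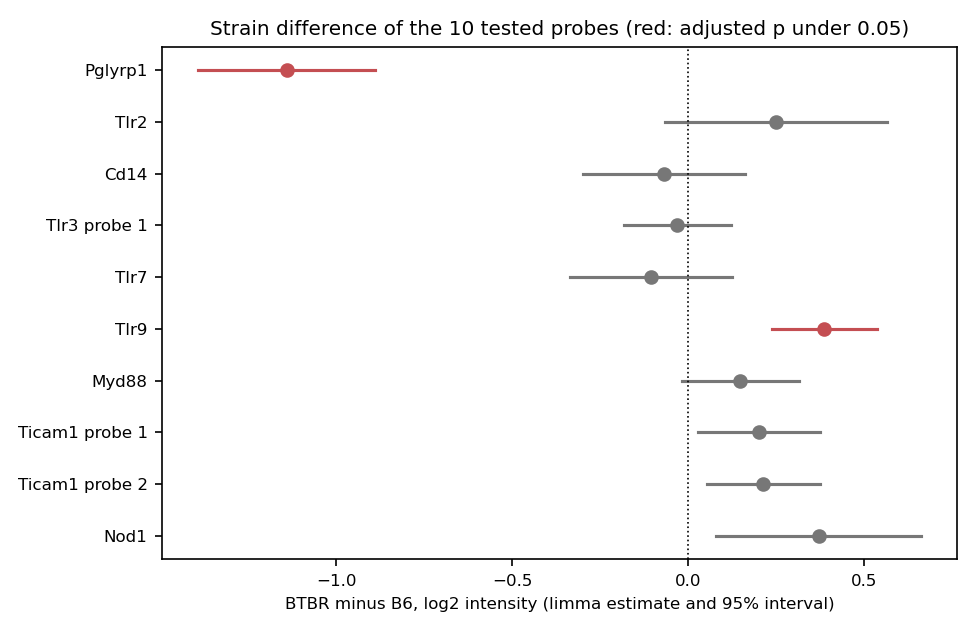
Difference between BTBR and B6 in log2 intensity for the 10 tested probes, with the limma estimate as a point and its 95% interval as a line, red where the adjusted p was under 0.05. Pglyrp1 lies at -1.14 and Tlr9 at 0.39, and the 8 other probes lie between -0.10 and 0.37.

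Among the 10 tested probes, 6 were higher and 4 lower in BTBR, with a median difference of 0.17, against a median of 0.01 over all probes tested. The strains did not overlap for 5 of the 10 probes, compared with 14.2% of all probes tested. The 5 probes were those of Pglyrp1, Tlr9 and Nod1 and the overlapping pair of Ticam1. The same 5 probes had an unadjusted limma p under 0.05, as did 18.5% of all probes tested. For 8 of the 10 probes the SD was larger among BTBR than among B6 mice, and the share of all probes tested for which this holds was not determined. B6 replicate 1 was the lowest B6 mouse for 7 of the 10 probes and BTBR replicate 2 the highest BTBR mouse for 7 of the 10, the overlapping Ticam1 pair included. Whether these mice rank so over all probes was not examined.

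Other genes of the pathway were taken from a list of 76 genes by role, of which 72 had a probe on the array and 52 were tested at their brightest probe. Of these 52 genes, 1 was called higher and 5 lower in BTBR, compared with 7.82% (3.49% higher and 4.33% lower) among the 18399 gene names tested in the same way. The rank product called 2 of the 52 genes higher (Nod2 and Lbp) and 1 lower (Ptgs2), while it called 1.64% of all probes tested higher and 2.29% lower. Limma did not call Lbp, which presents lipopolysaccharide to its receptor complex (0.77, SE 0.47, limma adjusted p = 0.454), and its strains overlapped, with an SD of 1.01 in BTBR and 0.53 in B6. The list was evenly divided, with 26 genes higher and 26 lower and a median difference of 0.00, against 0.01 over all gene names. None of the Toll-like receptors beside those above was tested. The probes of Tlr5, Tlr6 and Tlr8 were not well above background on enough arrays. That of Tlr1 was, on 7 arrays, but its spot carried an outlier flag on 1 array and the probe was left out for that. With the flagged spot kept, its difference was 0.95 with a standard error of 0.83 (limma adjusted p = 0.628).

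The gene called higher was Irak2, a kinase that carries the signal from Myd88 toward Traf6. Its level was 10.69 ± 0.03 in B6 and 11.11 ± 0.10 in BTBR (SD, n = 4 each), a difference of 0.42 (SE 0.07, limma adjusted p = 0.0041). The kinase Map3k7 (TAK1), which acts after Traf6, was called lower, with 9.82 ± 0.08 in B6 and 9.51 ± 0.03 in BTBR (difference -0.31, SE 0.06, limma adjusted p = 0.0159). This call was lost without B6 replicate 3 or 4, and with the replicate number as a block (limma adjusted p = 0.0562). The 11 other kinases and ubiquitin ligases tested were not called, among them Irak1, Irak4 and Traf6.

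A pair of called genes assist the receptors. Ly86 (MD-1), the partner of the receptor homologue Cd180, was lower at 13.09 ± 0.18 in BTBR against 13.54 ± 0.08 in B6 (difference -0.45, SE 0.10, limma adjusted p = 0.0221). With 1 array left out Ly86 was called in 3 of 8 fits (limma adjusted p up to 0.0714). Cnpy3, a chaperone for the folding and transport of Toll-like receptors including Tlr9, was lower at 13.05 ± 0.15 against 13.39 ± 0.06 (difference -0.35, SE 0.08, limma adjusted p = 0.0354). It was called in 2 of 8 such fits (limma adjusted p up to 0.11). Ly86 and Cnpy3 also lost their calls with the scanner's processed signal (limma adjusted p = 0.0765 and 0.0554). With the replicate number as a block they lost them too (limma adjusted p = 0.0666 and 0.101). Median centring removed the call of Cnpy3 (limma adjusted p = 0.0707) but not that of Ly86. Unc93b1, which carries the endosomal receptors out of the endoplasmic reticulum, was not called (difference -0.05, limma adjusted p = 0.822). Probes of Hsp90b1, the chaperone that works with Cnpy3, disagreed, with a difference of 0.27 at the brighter probe (limma adjusted p = 0.21) and of -0.85 at the other (limma adjusted p = 0.0079).

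The other called genes lie outside the receptor complexes. Mb21d1 (cGAS), the cytosolic DNA sensor, was lower at 8.34 ± 0.10 in BTBR against 8.86 ± 0.13 in B6 (difference -0.52, SE 0.09, limma adjusted p = 0.0055), and the difference was -0.999 with the processed signal and -0.36 in the deposited matrix. Ptgs2 (cyclooxygenase-2), an NF-kappa B target that neurons also express with activity, was lower at 8.94 ± 0.07 against 9.74 ± 0.14 (difference -0.81, SE 0.08, limma adjusted p = 0.00032), and its other probe gave -0.66 (limma adjusted p = 0.0018). Of the 13 target genes on the list 5 were tested, and Ccl2, Ccl5, Cxcl10 and Icam1 were not called. The cytokines Tnf, Il1b, Il6 and Ifnb1 were not well above background on any array.

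In the role groups without a limma call, the gene with the largest difference was Nod2 among NOD-like receptors and inflammasome genes (0.70, SE 0.22, limma adjusted p = 0.113). Its size depended on the processing, with 1.59 from the scanner's processed signal and 0.48 from the deposited matrix. The rank product called Nod2 higher, and limma called it without BTBR replicate 3 (0.89, limma adjusted p = 0.0195). The largest difference was that of Tnfaip3 (A20) among negative regulators (-0.55, SE 0.19, limma adjusted p = 0.16), Irf3 among transcription factors (0.22, SE 0.07, limma adjusted p = 0.13) and Tirap among adaptors (0.13, SE 0.09, limma adjusted p = 0.525). The difference of Tirap was 0.28 with the scanner's processed signal (limma adjusted p = 0.464) and 0.22 without BTBR replicate 4 (limma adjusted p = 0.159), without a call in either. It was 0.09 with the median over its probes (limma adjusted p = 0.629), and its other probe gave 0.04 (limma adjusted p = 0.858). Pglyrp2, the only other peptidoglycan recognition protein tested, had a difference of 0.00 (SE 0.08, limma adjusted p = 0.997). At further probes that were not the brightest of their gene, Pycard (-0.35, limma adjusted p = 0.0486) and Nfkb1 (-0.32, limma adjusted p = 0.0258) were lower and Cyld (0.47, limma adjusted p = 0.0423) was higher in BTBR, while their brightest probes were not called.

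**Figure D3:**
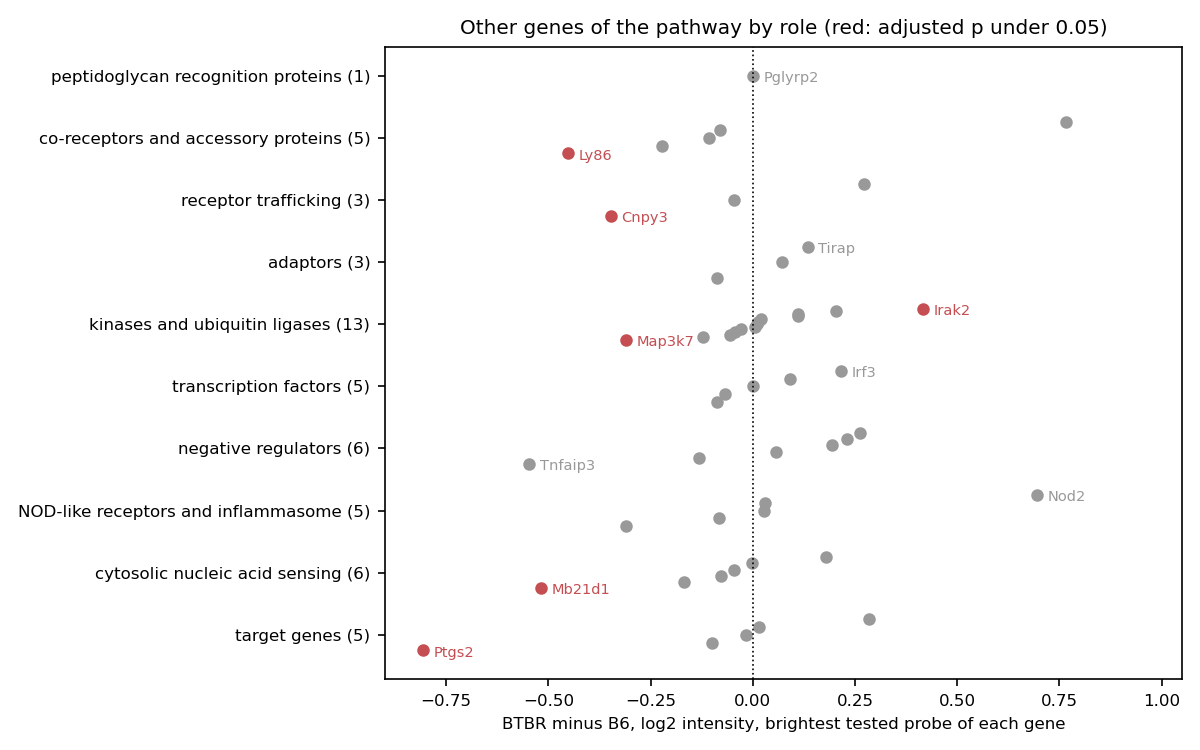
Difference between BTBR and B6 in log2 intensity (horizontal axis) for the 52 tested genes of the pathway list at their brightest probe, grouped by role with the number of tested genes in parentheses, red where the limma adjusted p was under 0.05. Red points are Irak2 at 0.42 on the right and Ptgs2, Mb21d1, Ly86, Cnpy3 and Map3k7 between -0.81 and -0.31 on the left, and the gray named genes are the largest differences of the groups without a limma call.

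Markers of the cells that express these sensors were examined beside them. Of 12 microglial markers, all were tested and 11 were lower in BTBR, 5 of them called (Itgam, Trem2, Tyrobp, C1qb and Fcrls), while 7.82% of all gene names were called. The rank product called 3 of the 12, Tyrobp, C1qb and Fcrls, all lower, compared with 2.29% of all probes called lower. The other probe of Itgam, of nearly the same brightness, gave -0.05 (limma adjusted p = 0.923). Fcrls had the largest difference, -1.16 at its brighter probe (limma adjusted p = 2.4e-05), although its other probe gave 1.09 (limma adjusted p = 0.00014). The summed level of the 12 genes was between 16.37 and 16.50 in B6 and between 15.95 and 16.36 in BTBR, without overlap. Csf1r, C1qa and P2ry12 had differences of -0.01, -0.05 and -0.05 and were not called. Tmem119 was the 1 marker with a positive difference (0.16, limma adjusted p = 0.598). The part of the 5 called markers in the results for Pglyrp1 and Tlr9 was not tested.

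Neutrophils store Pglyrp1, and 7 of 12 neutrophil markers were tested, with 0 called by limma, against 7.82% of all gene names, and 0 by the rank product. At an unadjusted p under 0.05, a level that 18.5% of all probes tested reached, there were 2, in opposite directions and each without overlap between the strains. These were Mpo (-0.24, limma adjusted p = 0.0603) and Csf3r (0.24, limma adjusted p = 0.0944). The summed level of the 7 markers was between 11.08 and 11.79 in B6 and between 11.25 and 11.82 in BTBR. The ranges overlapped, and Camp and Mmp8, which define neutrophil granules, were not well above background on any array. Of 5 markers of border macrophages and monocytes 3 were tested, with 0 called by either test (0 at an unadjusted limma p under 0.05) and overlapping sums (10.22 to 10.90 in B6 and 10.24 to 10.51 in BTBR). Of 6 erythrocyte markers 3 were tested, with 0 called by either test (0 at an unadjusted limma p under 0.05) and sums between 15.24 and 16.22 in B6 and between 15.65 and 17.60 in BTBR.

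Among other cell types, 1 of 5 astrocyte markers, Gfap, was called lower (-1.30, limma adjusted p = 0.0014), compared with 4.33% of all gene names called lower. The other 4 were not called, with differences of -0.26 for Aqp4, -0.24 for Slc1a3, -0.06 for Gja1 and 0.19 for Aldh1l1, and both further probes of Slc1a3 had positive differences. The summed levels of the 5 markers did not overlap (16.15 to 16.22 in B6 and 15.82 to 15.89 in BTBR). Limma called 0 of 5 endothelial, 5 choroid plexus, 4 meningeal and 6 thalamic markers at their brightest probe, against 7.82% of all gene names. The meningeal Igf2 was the 1 among them at an unadjusted limma p under 0.05, a level that 18.5% of all probes tested reached. The rank product called Igf2 of the meningeal and Slc17a6 of the thalamic markers higher, against 1.64% of all probes tested called higher. The other probe of Igf2 was called by limma (1.24, adjusted p = 0.0333). All 6 thalamic and all 5 choroid plexus markers had positive differences, with medians of 0.57 and 0.43, and their part in the results for the sensors was not tested. Of 8 markers of hippocampal neurons, 7 had negative differences, with a median of -0.61 over the 8. Limma called 0 of them (3 at an unadjusted p under 0.05, against 18.5% of all probes tested). The rank product called 2 lower, C1ql2 and Fibcd1, and 1 higher, Wfs1, the 1 marker with a positive difference. Over all probes tested it called 2.29% lower and 1.64% higher. The part of these markers in the results for the sensors was not tested. The summed level of the 8 neuronal markers lay between 16.68 and 17.14 in B6 and between 16.19 and 17.20 in BTBR.

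**Figure D4:**
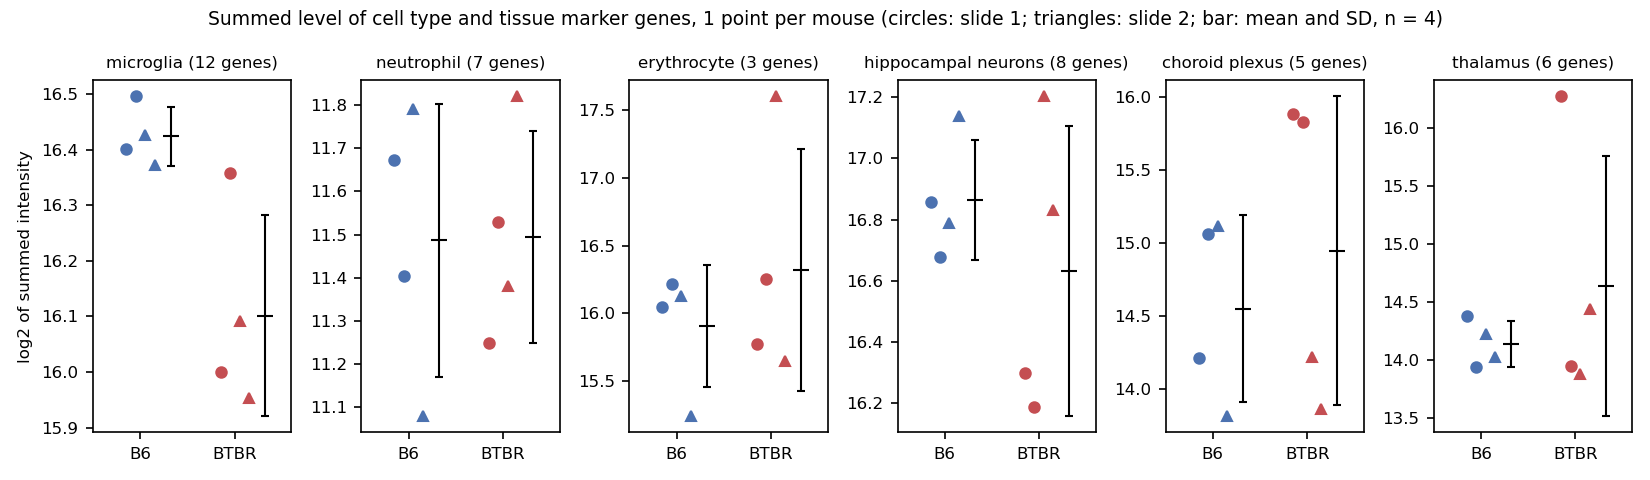
Summed level of marker genes, as log2 of the summed normalized intensities of the tested genes, in 4 B6 (blue) and 4 BTBR (red) mice, with circles for slide 1, triangles for slide 2 and the mean with its SD in black, and with a vertical scale of its own in each panel. The microglial sum is lower in all BTBR mice, the neutrophil sums overlap, BTBR replicate 3 is high in erythrocyte genes and BTBR replicate 1 in thalamic genes.

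The chromosomal surroundings of Pglyrp1, Tlr9 and Nod1 were described as well, in a window of 500 kb to either side that was chosen after the values were seen. Around Pglyrp1, 34 probes of 25 other gene names were tested, of which limma called 3 higher and 5 lower and the rank product 2 lower, and their median difference was 0.09. Over all probes tested limma called 7.61% and the rank product 3.93%. The nearest called probe was that of Ccdc61, on the opposite strand with 674 bases between the probes, which was lower in BTBR (-0.69, SE 0.10, limma adjusted p = 0.0026). Sympk, a scaffold protein of mRNA 3′ end processing that lies 164 kb away, had a difference of -1.13 (SE 0.08, limma adjusted p = 3.8e-05). Around Tlr9, limma called 3 of 33 probes higher and 5 lower and the rank product 1 higher and 6 lower, with a median difference of 0.06. The nearest called probe, that of Ppm1m at 31537 bases, was lower (-0.69, limma adjusted p = 0.0023), and the largest difference was that of Rpl29, also lower (-1.83, limma adjusted p = 1.7e-05). Higher were Col6a5 and both probes of Wdr82 (0.37 to 0.69). Around Nod1, limma called 0 of 25 probes and the rank product 1 lower. An unadjusted limma p under 0.05 was found for 17 of the 34 probes around Pglyrp1, 13 of the 33 around Tlr9 and 6 of the 25 around Nod1, against 18.5% of all probes tested. The limma calls around Pglyrp1 and Tlr9 were thus in both directions, whereas those of the rank product around Pglyrp1 were all lower.

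Over the 8 mice, the probe pattern most like that of Pglyrp1 was that of Tmem159 (Pearson r = 0.995), followed by Rbbp4, Sympk, Rmdn3 and the transcript E030011O05Rik (r between 0.990 and 0.993). These are the 5 highest of 25386 probes compared, 663 of which had r above 0.9. All 5 were lower in BTBR, by between -0.72 and -1.31. After the mean of each strain was removed, r was between 0.84 and 0.91. Since the 5 were picked for their r with Pglyrp1 over the same mice, neither their direction nor this r is a separate observation. Tmem159 and Sympk lie on chromosome 7, as Pglyrp1 does, at 107789 kb and 164 kb from it.

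The calls were followed through 20 other settings, 8 of which left out 1 array each. Pglyrp1 was called in all 20, with a difference between -1.38 and -1.02, and Tlr9 in all 20, between 0.34 and 0.42. No other sensor probe was called under any of them. Nod1 came nearest without BTBR replicate 4, with a difference of 0.45 and a limma adjusted p of 0.0733, and its adjusted p lay between 0.0733 and 0.298 over the 20 settings. Tlr2 varied with the mice included, from 0.13 without BTBR replicate 2 to 0.34 without BTBR replicate 4, and it was 0.45 when the scanner's processed signal was used.

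**Figure D5:**
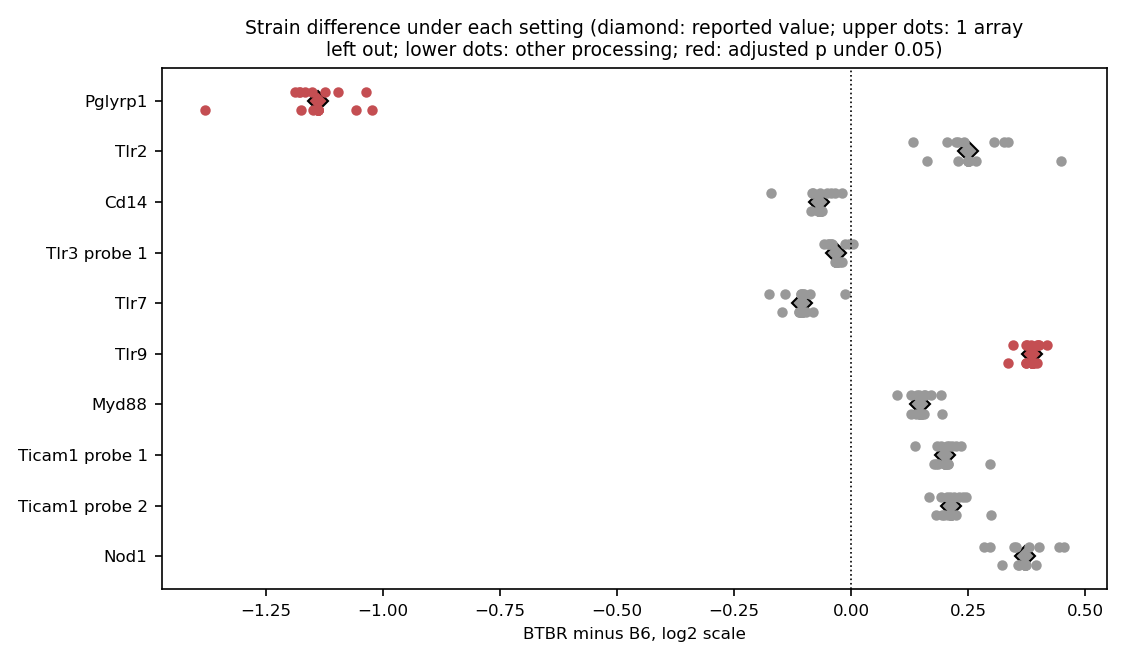
Difference between BTBR and B6 in log2 intensity for the 10 tested probes as reported (diamonds), with 1 array left out (upper dots) and under other processing (lower dots), red where the limma adjusted p was under 0.05. Pglyrp1, between -1.38 and -1.02, and Tlr9, between 0.34 and 0.42, are red throughout, and all other probes are gray throughout.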

How the data were processed

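Each of 8 mice was measured on 1 array. The authors deposited spot intensity values from Agilent Feature Extraction, whose version is 10.7.3.1 in the file headers and 9.1 in the submitters' processing notes. The authors also deposited a matrix of log2 values, background handled and quantile normalized with Agi4x44PreProcess. Its signal column and offset are not given in the sources used here, and its column medians all round to 8.83. The values reported here start from the spot intensities. Spot means were corrected by subtracting the median local background (floor 0.5), an offset of 50 was applied before log2, and arrays were quantile normalized. Flagged spots were dropped, 154 probes left without an unflagged spot on an array were excluded, and the median was taken over replicate spots. Probes well above background on at least 75% of the arrays of a strain were tested with limma 3.58.1 in R 4.3.3 (strain only, empirical Bayes, Benjamini-Hochberg). The exact permutation tests were also made in R. The rank product (16 array pairs, 100 permutations) and figures were made in Python 3.11.15 with NumPy 2.4.6, SciPy 1.17.1, pandas 2.3.3 and matplotlib 3.10.9.
On simulated data with 27982 probes, limma recovered 45 of 100 probes changed by 0.5 and 86 of 100 changed by 1 on the log2 scale, with 7 false calls. The number of arrays limits the precision. Positions are those of mm9 in the array files, and gene names are those of the array design.
The sensors, the pathway list and the marker lists were chosen with earlier results of these data known. All sensor probes were named, with the called genes of the pathway list, the largest difference of each role group without a limma call, and the 5 probes most like Pglyrp1. Markers, neighboring genes and further genes were named after their values were seen. Alternatives were other background corrections and scalings, the deposited matrix, other filters, offsets and limma options, the slide or replicate number as a block, stricter thresholds, and each array left out. The qRT-PCR measurements and other mice of the study were not analysed here.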

Additional observations from a re-analysis of the deposited data

Results flagged for a closer look

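Among the 26 sets of 4 values, 1 per probe and strain, 2 held a mouse far from the 3 others, and chance gives about 1 in 20. Both times this was BTBR replicate 3. For Pglyrp1 it had a level of 9.31, and the nearest other BTBR mouse had 9.70. For Tlr3 probe 1 it had a level of 8.92, and the nearest other BTBR mouse had 9.05. This mouse also had the highest summed level of erythrocyte genes, and its part in these values was not tested.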

How the results depend on the processing

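Over the alternatives, 393 of 421 single values kept their direction and their side of the threshold, 19 lost a call, 2 gained one and 7 reversed, none of them called. The reversed values were those of Tlr3 probe 1, which lay between -0.058 and 0.0042 with 1 array left out (0.0042 without BTBR replicate 3), and of Pglyrp2, which lay between -0.032 and 0.062 and was below 0 in 6 of these 8 fits. Both sensor calls held in limma under all settings, adjusted p under 0.01 included (2 probes), and the rank product called 1 sensor probe throughout. With 1 array left out, 2 sensor probes were called each time and between 1533 and 2183 of all probes. Of the pathway list, 6 genes were called, but 3 with the replicate number as a block, 3 at an adjusted p under 0.01 and between 3 and 6 with 1 array left out (3 without B6 replicate 3). Irak2, Mb21d1 and Ptgs2 were called in all 20 settings, Map3k7 in 17, Ly86 in 13 and Cnpy3 in 11. Nod2 gained a call without BTBR replicate 3 (0.89) and Tnfaip3 without B6 replicate 1 (-0.71). Cnpy3 lost its call without any array but BTBR replicates 1 and 4, Ly86 without B6 replicates 1 to 3 or BTBR replicates 1 and 4. Deviations of mice with the same replicate number correlated between -0.14 and 0.51. Those of other pairs correlated between -0.26 and 0.37 on the same slide and between -0.50 and 0.34 across slides. With so few mice, these values cannot settle whether the numbers pair the mice. With the block, the adjusted p was 0.0051 for Pglyrp1, 0.0242 for Tlr9, 0.0562 for Map3k7, 0.0666 for Ly86 and 0.101 for Cnpy3. The block left the differences themselves unchanged (-1.14 for Pglyrp1 and 0.39 for Tlr9) and altered only their adjusted p. The cause of the changes in calls over the settings was not tested. Signal over background limits Tlr4 and the second Tlr3 probe.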
